A study of Mus musculus with 4 samples.

Results

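Interferon-stimulated genes, the transcripts that cells raise when interferon binds its receptors, were followed across 4 RNA sequencing libraries of mouse fibroblasts grown out of the shoulder joint capsule. The set was given by gene symbol and holds 45 genes. Of these, 43 were found among the 16416 genes of the expression table, and 42 reached 1 CPM (read counts scaled to library size) in at least 1 library. Mx1 and Mx2, dynamin-like antiviral GTPases, are annotated as transcribed pseudogenes in the RefSeq table of GRCm38.p6 and were not analysed here.

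The study addressed the role of the microRNA miR-26a in a mouse model of frozen shoulder made by immobilizing the joint. All cells came from capsule tissue taken 1 week after immobilization, were kept in medium with fetal bovine serum and were used at passage 2. The wild-type library came from C57BL6/J cells and the other 3 from miR-26a -/- cells, whose strain the labels do not give. Of these, one was untransfected, one received 10 nM of Silencer Negative Control, an siRNA, and one received 10 nM of a double-stranded miR-26a mimic, each for 24 h with Lipofectamine RNAiMax. The 2 transfected cultures were therefore both exposed to a double-stranded RNA and a lipid carrier, and a knockout culture with the carrier alone was not analysed here. Whether cultures were pooled from several mice is not given in the sources used here.

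Each group had 1 library, so a ratio compares a pair of libraries, not the conditions, and has no replicate check. Library totals lay between 17598763 and 19392655 estimated counts. Log2 ratios are given with exact 95% binomial (Clopper-Pearson) intervals in parentheses, and these hold counting error alone. To be called higher or lower, a gene needed 1 CPM in either library, a 2-fold ratio and an interval on 1 side of 0. MiR-26a itself was not measured here.

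Interferon acts through receptor-bound kinases that phosphorylate transcription factors such as Stat2. Stat2 and Irf9 are part of a complex that binds the interferon-stimulated response element (ISRE) in promoters. The induced genes fall into nucleic acid sensors, which detect foreign or misplaced RNA and DNA and feed back on interferon production, effectors, which block steps of virus growth, and GTPases, which attack the compartments of intracellular microbes. Fibroblasts and macrophages both express these genes, at a low level without infection.

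The 2 strands of the mimic, as the labels give them, are shown because double-stranded RNA is the substrate that several members bind. Capitals mark the seed, bases 2 to 8 of the sense strand.
Mimic sense strand: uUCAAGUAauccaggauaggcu
Mimic anti-sense strand: ccuauucuugguuccuugcacg
The sense strand has the sequence of RefSeq's mmu-miR-26a-5p. The anti-sense strand differs from RefSeq's mmu-miR-26a-1-3p by A14C, counted from the 5' end with the RefSeq base first.

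Among the 43 members in the table, 3 held the seed's complement TACTTGA in an annotated 3' untranslated region (3' UTR), 6.98% of 43, against 11.2% of 15798 table genes with such a region. These sites are shown with their flanks and with the site in capitals, from GENCODE M21 on GRCm38.
Herc6 site, chr6:57663025-57663031, plus strand: taaaggatttTACTTGAattgcacagt
Ifih1 site, chr2:62596013-62596019, minus strand: tttcttaaaaTACTTGAagcattccat
Parp14 site, chr16:35834507-35834513, minus strand: aaaatgaatcTACTTGAgagccaatcg
None of the 3 lay below 0 when the mimic library was set against the negative control. Herc6 had a log2 ratio of 0.01 (-0.24 to 0.26), Ifih1 of 0.28 (0.05 to 0.50) and Parp14 of 0.17 (0.06 to 0.29).

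Promoter windows, 250 bases before to 50 bases after a start site given for a gene, were present in RefSeq's GRCm38.p6 table for 33 of the 45 members. The ISRE core, GAAA followed after any 2 bases by GAAA and searched on both strands, stood in a window of 17 of these 33, 51.5%, against 3.99% of 27025 genes in the promoter table. The core of the interferon-gamma activated sequence, TTC followed after any 3 bases by GAA, which reads alike on both strands, stood in 9 of 33, 27.3%, against 9.55%. The 2 motifs share bases in Ifitm3 and Bst2, and these matches describe letters, not binding. Of the GTPases all 5 with a window held an ISRE core, as did 5 of 13 antiviral effectors, 3 of 5 sensors and 2 of 4 OAS genes. With Ifit1, whose whole window follows, the windows below cover the 6 members with a core that were called in a comparison. Of the 11 members with a core that were called in none, only Irgm1 and Gbp2 are shown. The core is in capitals, reading along the gene's strand.
Oas1a, chr5:120907520-120907549, minus strand: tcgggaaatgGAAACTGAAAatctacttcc
Oas3, chr5:120777715-120777744, minus strand: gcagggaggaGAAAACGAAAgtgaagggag
Isg15, chr4:156200871-156200900, minus strand: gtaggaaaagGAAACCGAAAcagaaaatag
Ifit3, chr19:34583397-34583426, plus strand: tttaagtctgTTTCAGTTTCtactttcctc
Rsad2, chr12:26456553-26456582, minus strand: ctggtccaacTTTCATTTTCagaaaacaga
Irgm1, chr11:48871425-48871454, minus strand: tcaagaaataGAAACCGAAActgattctca
Gbp2, chr3:142620594-142620623, plus strand: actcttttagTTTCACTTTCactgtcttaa
In Isg15, Oas1a and Irgm1 the core overlaps further copies, with 3, 2 and 2 in all, and the Ifit3 window holds a second, separate core 156 bases before the start site of that window. The Ifit3 window lies inside the annotated span of the gene, chr19:34583119-34588982, so that start site is not the gene's first annotated base. The whole 300-base window of Ifit1, chr19:34640639-34640938 on the plus strand, is given as an example of a window with 2 separate cores, which start 104 and 85 bases before the gene.
Ifit1 promoter: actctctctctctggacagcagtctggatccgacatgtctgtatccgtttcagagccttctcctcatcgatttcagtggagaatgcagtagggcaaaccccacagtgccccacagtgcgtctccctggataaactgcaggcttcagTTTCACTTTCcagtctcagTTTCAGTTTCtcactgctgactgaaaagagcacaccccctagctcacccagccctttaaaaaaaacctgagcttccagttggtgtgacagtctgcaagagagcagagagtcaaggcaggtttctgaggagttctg

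Most members were expressed at a low level in these cells. On the scale of TPM, transcripts per 1e+06 transcripts, which is per length and can be compared between genes, 21 of 43 stayed under 10 TPM in every library and 19 more stayed under 100 TPM. The other 3 were at 100 TPM or more in every library. Ifitm3, a membrane protein that hinders virus entry, stood at 922.41 TPM in the wild-type, 910.55 TPM in the knockout, 786.81 TPM in the negative-control and 900.29 TPM in the mimic library. Lgals3bp, a secreted glycoprotein that binds galectins, stood at 389.30, 347.58, 317.95 and 326.38 TPM in the same order, and Bst2, or tetherin, which holds budding virus at the cell surface, at 108.33, 161.81, 157.14 and 151.85 TPM. These abundant genes moved little, except that Bst2 was lowest in the wild-type library. The lowest member was Oasl1, which in mice restrains Irf7 translation, with 2, 6, 2 and 9 counts, under 1 CPM in every library.

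**Figure D1:**
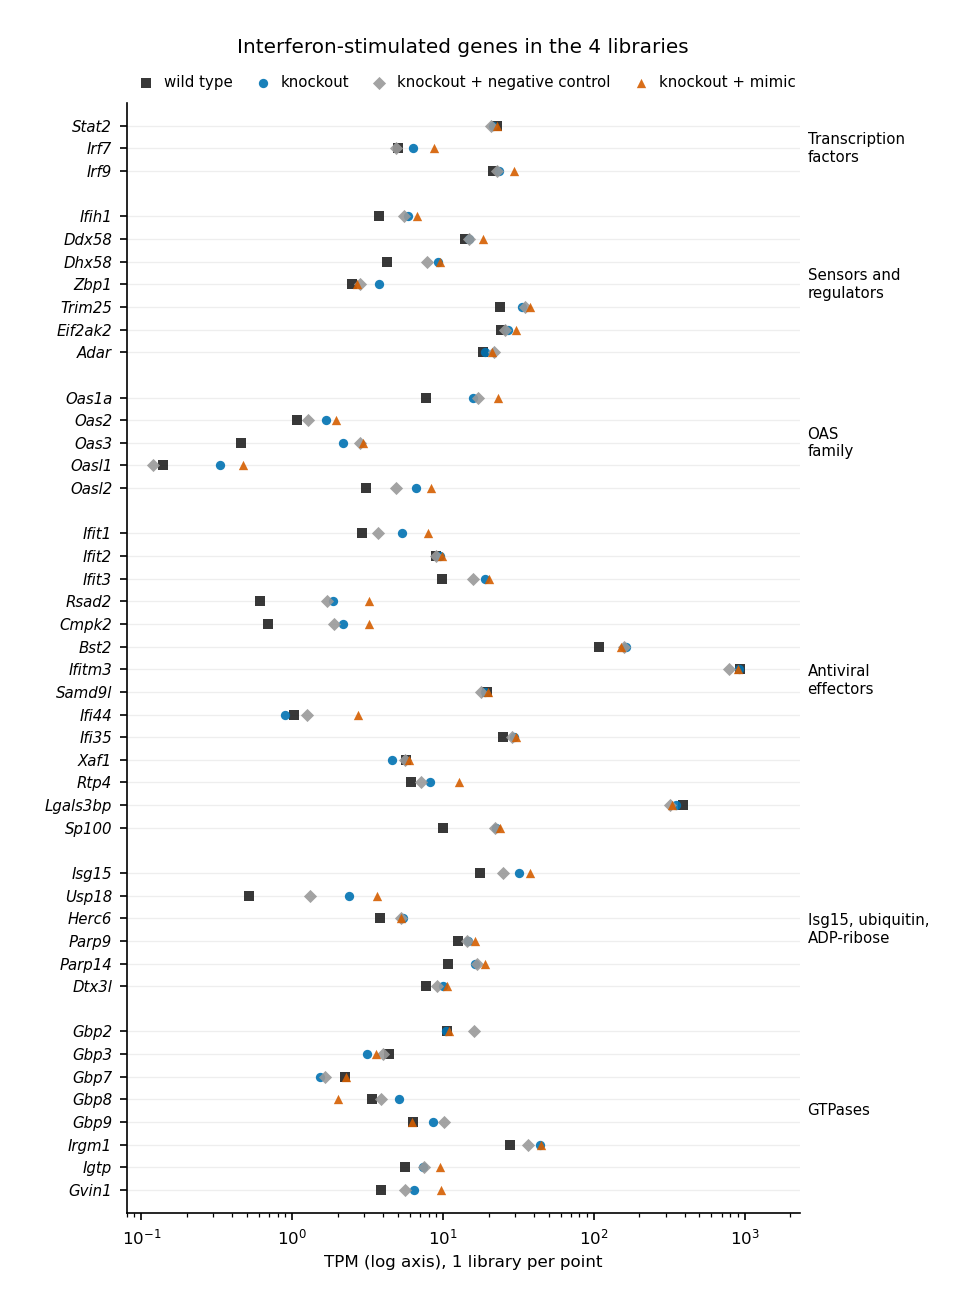
TPM on a log axis of the 43 members in the table, 1 point per library, grouped by role. By TPM the wild-type point is the lowest for 30 of 43 members and the mimic point the highest for 32.

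Across the 4 libraries, 34 of 42 measured members had their lowest CPM in the wild-type library, where 40.3% of all 12876 measured genes were lowest. The mimic library was the highest for 27 of 42, where 20.6% of all genes were highest. It was the lowest for 1 member, Gbp8, against 19.8% of all genes, and the wild-type library was the highest for 2, Gbp3 and Lgals3bp, against 37.8%. All 4 measured OAS genes and all 3 transcription factors were highest with the mimic, as were 5 of 6 genes of the Isg15 and conjugation class. GTPases were spread, with 3 of 8 highest with the mimic, 2 in the negative-control, 2 in the knockout and 1 in the wild-type library.

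Between the untransfected knockout and the wild-type library, most interferon-stimulated genes had a ratio above 0. At least 2-fold higher were 11 of 42 members and none was lower, where 5.90% of 12803 measured genes were higher and 7.00% lower. The median log2 ratio was 0.61 (range -0.41 to 2.32), against 0.01 over all measured genes, and 38 of 42 lay above 0, against 51.2%. The interval lay above 0 for 33 members, against 32.6% of all genes, and below 0 for none, against 30.3%. The 11 genes were Oas3, Usp18, Cmpk2, Rsad2, Dhx58, Oasl2, Sp100, Oas1a, Ifit3, Zbp1 and Isg15, with Isg15 and Zbp1 just past the limit.

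The OAS genes, whose enzymes make the oligoadenylates that activate the RNA-degrading enzyme RNase L, had the highest class median, at 1.19. Oas3 was counted 18 times in the wild-type library and 93, 127 and 125 times in the knockout, negative-control and mimic libraries, or 0.46, 2.17, 2.83 and 2.95 TPM. The 3 knockout cultures thus lay together, well above the wild type, and the knockout to wild-type ratio was 2.32 (1.64 to 3.20). Oas1a, at 7.66, 15.87, 17.07 and 23.04 TPM, had a ratio of 1.16 (0.81 to 1.53). Oasl2, at 3.10, 6.57, 4.85 and 8.33 TPM, had a ratio of 1.22 (0.82 to 1.66). For Oasl2 the negative-control library fell between wild type and knockout. Oas2, at 1.07, 1.68, 1.27 and 1.94 TPM, had a ratio of 0.81 (0.20 to 1.48) and was not called.

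Among the antiviral effectors 4 of 14 were called higher, with a class median of 0.51. Rsad2 encodes viperin, which makes a nucleotide that ends viral RNA chains, and Cmpk2, its neighbour on chromosome 12 in the opposite direction, encodes a nucleotide kinase. Rsad2 was counted 19, 63, 63 and 112 times in the wild-type, knockout, negative-control and mimic libraries, and Cmpk2 18, 61, 58 and 93 times. The neighbours thus followed the same order, with ratios of 1.69 (0.98 to 2.56) and 1.72 (0.99 to 2.62) between knockout and wild type. Sp100, a nuclear body protein, was at 10.04 TPM in the wild-type library and at 22.53, 21.99 and 23.79 TPM in the others, a ratio of 1.18 (0.94 to 1.42). It resembles Oas3 in that the 3 knockout cultures lay close together. Of the Ifit genes, whose proteins bind viral RNA, Ifit3 had 9.85, 18.84, 15.68 and 19.98 TPM and a ratio of 1.05 (0.78 to 1.35). Ifit1 had 2.89, 5.32, 3.71 and 7.95 TPM and lay just under the limit, at 1.00 (0.56 to 1.48). Ifit2 differed little, at 0.23 (0.00 to 0.46), although the 3 Ifit genes all lie on chromosome 19. Of the effectors that were not called, Bst2 stood at 0.73 (0.57 to 0.89), Xaf1, a pro-apoptotic protein, at 0.58 (0.14 to 1.04), Rtp4, a chaperone of membrane receptors, at 0.44 (-0.03 to 0.92) and Ifi35 at 0.39 (0.14 to 0.64). The Xaf1 ratio turned to -0.30 on the TPM scale. Ifitm3, Samd9l and Lgals3bp stood at 0.14 (0.07 to 0.21), 0.10 (-0.04 to 0.23) and -0.03 (-0.08 to 0.02).

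The Isg15 system, in which a ubiquitin-like protein is attached to and removed from other proteins, had 2 of 6 genes called higher in the knockout library and a class median of 0.67. Isg15 stood at 17.63, 31.97, 24.89 and 37.45 TPM, and its knockout to wild-type ratio was 1.00 (0.61 to 1.42). Usp18, which removes Isg15 and dampens the interferon receptor, was rare, with 7, 35, 21 and 54 counts, and had a ratio of 2.18 (1.14 to 3.75). Its wild-type count is the smallest of all called members, and the interval is accordingly wide. Herc6, the main Isg15 ligase in mice, had 3.79, 5.42, 5.22 and 5.29 TPM and a ratio of 0.64 (0.36 to 0.93), and Parp14, an ADP-ribosyltransferase, had 10.80, 16.19, 16.70 and 18.93 TPM and a ratio of 0.70 (0.56 to 0.84). The partner proteins Parp9 and Dtx3l stood at 0.32 (0.12 to 0.53) and 0.49 (0.29 to 0.70).

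Sensors and their regulators had a median of 0.62, and all 7 had an interval above 0. Dhx58, or LGP2, the regulator among the RIG-I-like receptors, was called, with 4.24, 9.30, 7.77 and 9.53 TPM and a ratio of 1.25 (0.88 to 1.66). Zbp1, a sensor of Z-form nucleic acid, had only 17, 35, 25 and 30 counts and a ratio of 1.01 (0.18 to 1.98). The helicase sensors that start signalling were less far apart. Ifih1, or MDA5, had 3.76, 5.89, 5.54 and 6.76 TPM and a ratio of 0.77 (0.50 to 1.05), and Ddx58, or RIG-I, had 13.89, 14.89, 14.92 and 18.31 TPM and a ratio of 0.23 (0.07 to 0.39). Trim25, a ubiquitin ligase that acts on RIG-I, had 23.64, 33.30, 34.74 and 37.63 TPM and a ratio of 0.62 (0.51 to 0.73). Eif2ak2, the kinase PKR, which is activated by double-stranded RNA and halts translation, stood at 0.25 (0.14 to 0.37), and Adar, an RNA editing enzyme, at 0.16 (0.03 to 0.29).

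The transcription factors differed least among the classes, with a median of 0.27 and none called. Stat2, at 22.88, 21.47, 20.74 and 22.86 TPM, had a ratio of 0.04 (-0.10 to 0.18). Irf9 had 21.49, 23.54, 22.79 and 29.39 TPM and a ratio of 0.27 (0.08 to 0.46). Irf7, which amplifies interferon production, had 5.05, 6.36, 4.87 and 8.72 TPM and a ratio of 0.45 (-0.01 to 0.92), an interval that includes 0.

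None of the 8 GTPases reached 2-fold, where 5.90% of all measured genes were called higher and 7.00% lower. The ratios went both ways, 6 above 0 and 2 below, with a median of 0.56. Intervals lay above 0 for 5 and below 0 for none, against 32.6% and 30.3% of all genes. Gvin1, a very large interferon-inducible GTPase, had 3.90, 6.40, 5.62 and 9.74 TPM and the highest ratio, at 0.85 (0.65 to 1.06). Irgm1, an immunity-related GTPase that acts on autophagy, had 27.86, 43.69, 36.45 and 44.85 TPM and a ratio of 0.79 (0.63 to 0.96), and Igtp, of the same family, stood at 0.53 (0.14 to 0.96). Guanylate-binding proteins, which coat microbe-containing vacuoles, split by member. Gbp8 and Gbp9, from the cluster on chromosome 5, stood at 0.67 (0.24 to 1.13) and 0.59 (0.37 to 0.81), whereas Gbp3 and Gbp7, from the cluster on chromosome 3, stood at -0.40 (-0.86 to 0.04) and -0.41 (-0.86 to 0.02). Gbp2, also on chromosome 3, stood at 0.13 (-0.15 to 0.41). Gbp6, a further guanylate-binding protein gene that is no member, stood at -0.54 (-1.09 to -0.03), with a fractional wild-type count. The split is therefore given member by member and is not a rule for the clusters. Guanylate-binding proteins are similar in sequence, and how reads were divided among them is not given in the sources used here.

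**Figure D2:**
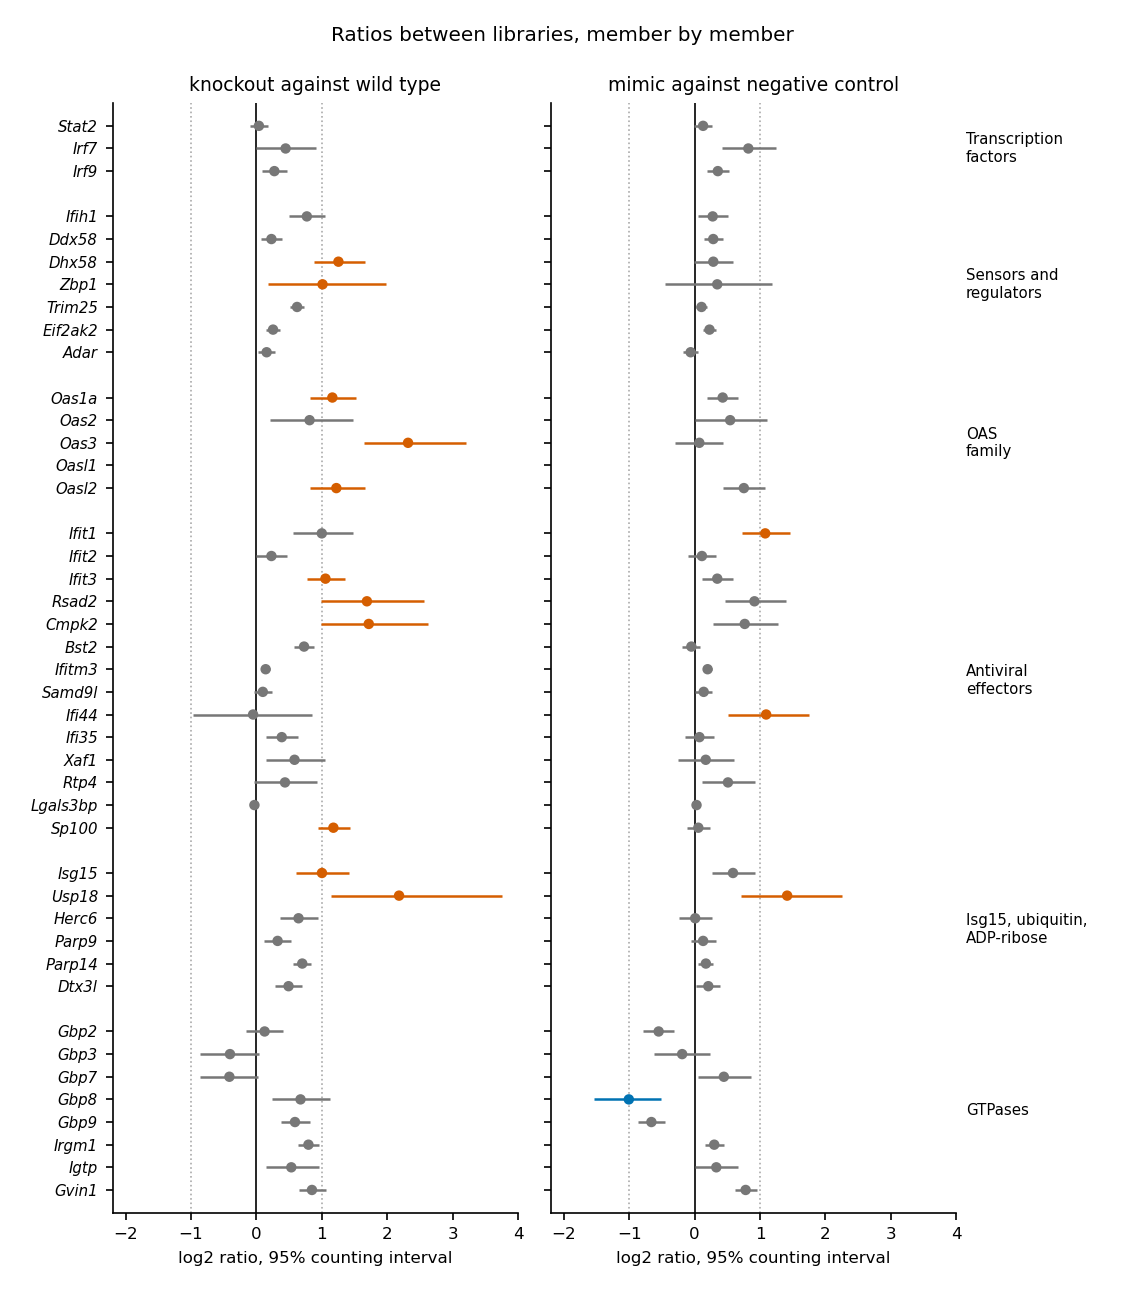
Log2 ratios of each measured member with 95% counting intervals, for knockout against wild type (left) and mimic against negative control (right), with dotted lines at 2-fold and called members in orange (higher) or blue (lower). On the left 11 members are called, all higher, and on the right Ifit1, Ifi44 and Usp18 are called higher and Gbp8 lower, a call at the limit that 3 other settings lose.

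Markers of macrophages differed between the same libraries, in the same direction as these genes. Of 20 macrophage markers 19 were measured, and 10 of these were called higher in the knockout library and none lower, with a median log2 ratio of 1.06. The summed level of the 20 was 24312.66 TPM in the wild-type library and 34649.90 to 35886.02 TPM in the 3 knockout cultures. Much of this sum was Lyz2, at 14912.62 TPM in the wild-type library and 17285.61 to 18990.65 TPM in the 3 knockout cultures. Cd163, a scavenger receptor of macrophages, was at or near 0, with 5, 0, 1 and 6 counts. Of 14 fibroblast markers 6 were called lower and none higher, where 7.00% and 5.90% of all measured genes were, with a median of -0.86. The 2 above 0 were Twist2 at 0.77 (0.52 to 1.02) and Pdpn at 0.60 (0.50 to 0.70). The sum of the 14 fibroblast markers was 17326.05 TPM in the wild type and 7403.95 to 8145.59 TPM in the others. The labelled fibroblast identity is thus present in every library beside abundant macrophage transcripts. In bulk RNA more cells of a type and more RNA per cell cannot be told apart, and the part of cell mixture in the difference was not tested. Markers of T and NK cells, B cells and neutrophils were nearly absent, with summed levels of at most 0.18, 0.14 and 2.16 TPM in any library over the 2, 3 and 2 genes found. Of 5 endothelial markers 2 were measured, Kdr, which was called higher, and Vwf, which was not called. Pecam1, Cdh5 and Tie1 stayed under 1 CPM in every library. In the order wild type, knockout, negative control and mimic, Pecam1 had 11, 1, 3 and 0 counts. Cdh5 had 13, 10, 19 and 8 counts and Tie1 had 5, 0, 0 and 0, so the endothelial markers went both ways. Of 4 markers of plasmacytoid dendritic cells, the specialised interferon producers, 1 was measured, Cox6a2, which muscle also expresses.

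Of 21 interferon genes in a fixed list, 2 were found in the table. Ifne had 0, 0, 1 and 0 counts and Ifnz 5.59, 4.28, 8.29 and 5.02 estimated counts, under 1 CPM in every library. The other 19, Ifnb1 and Ifng among them, were not analysed here. All 6 listed receptor subunits were found and 5 were measured. Ifnlr1, of the interferon-lambda receptor, had 2, 2, 8 and 2 counts, under 1 CPM in every library. Il10rb stood at 115.98, 172.90, 185.01 and 169.77 TPM Ifngr2, of the interferon-gamma receptor, at 87.87, 112.32, 129.69 and 102.51 TPM and Ifnar2, of the type I receptor, at 101.47, 106.72, 107.05 and 104.29 TPM. None of the 5 measured receptor genes was called in any of the 4 comparisons, and their knockout to wild-type median was 0.33. Of 13 signalling genes 2 were called higher in the knockout library, Irf5 at 1.42 (1.28 to 1.56) and the phosphatase gene Ptpn6 at 1.53 (1.43 to 1.64), both best known from blood cells. Of all measured genes 5.90% were called higher. The signalling list went both ways, with 8 genes above 0 and 5 below, and with 7 intervals above 0 and 3 below. Irf5 stood at 33.65, 80.84, 90.32 and 84.23 TPM and Ptpn6 at 52.60, 138.42, 147.88 and 127.64 TPM, so that the 3 knockout cultures lay together. The most abundant kinase gene, Jak1, stood at 168.06, 128.11, 134.30 and 128.33 TPM, with a knockout to wild-type ratio of -0.28 (-0.33 to -0.23). Of 15 genes in a fixed list around interferon induction, 2 were called higher and none lower, against 5.90% and 7.00% of all genes. These were Tlr9 at 1.89 (1.39 to 2.48) and Tlr8 at 1.01 (0.91 to 1.12), endosomal receptors of immune cells for DNA and RNA. In this list 14 genes lay above 0, against 51.2% of all genes. Its intervals lay above 0 for 12 genes and below 0 for 1, against 32.6% and 30.3%.

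A further 60 interferon-induced genes that are not members were found of 63 listed, with 52 measured in this comparison. Of these, 17 were called higher and 1 lower, with a median of 0.41, so that the list also held more higher genes than the 5.90% of all genes. The largest ratios were those of the chemokine Ccl5 at 2.93 (2.02 to 4.35), the nuclear body gene Sp110 at 2.74 (2.34 to 3.24), the GTPase Tgtp1 at 2.48 (1.42 to 4.21), the chemokine Cxcl10 at 2.18 (0.99 to 4.13) and Ifi27l2a at 2.02 (1.55 to 2.57). Tgtp1 and Sp110 have close copies and carry fractional counts, so their values are uncertain. Slfn5 was the gene called lower, at -1.02 (-1.19 to -0.85). With the mimic against the negative control none of these 52 was called, where 0.855% of all genes were higher and 0.352% lower. The median was 0.11, and 37 lay above 0, against 48.5% of all genes. Intervals lay above 0 for 12 and below 0 for none, against 19.1% and 18.8% of all genes. The receptor, signalling and induction lists had medians of -0.02, -0.05 and -0.06 in that comparison, with none called, where few of all genes were. Ccl5 was lower in the negative-control than in the knockout library, at -1.12 (-1.78 to -0.53).

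Between the mimic and the negative-control library few members reached the 2-fold limit. At least 2-fold higher were 3 of 42 members, Usp18, Ifi44 and Ifit1, and 1, Gbp8, was lower, where 0.855% of 12512 measured genes were higher and 0.352% lower. The Gbp8 call lay at the limit and was lost with DESeq2 size factors (log2 ratio -0.9987), on the TPM scale (-0.92) and with a prior of 5 counts (-0.95). The median log2 ratio was 0.25, against -0.01 over all genes, and 36 of 42 members lay above 0, against 48.5% of all genes. The interval lay above 0 for 24 members, against 19.1% of all genes, and below 0 for 3, Gbp2, Gbp8 and Gbp9, against 18.8%. None of the 19 measured macrophage markers was called here, and they went both ways, with a median of -0.04, 5 intervals above 0 and 9 below. Cd14 stood at 0.41 (0.33 to 0.49) and Aif1 at -0.90 (-1.14 to -0.67), and the part of these differences in the members' values was not tested.

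Ifi44, an interferon-induced protein, was counted 23, 22, 34 and 69 times in the wild-type, knockout, negative-control and mimic libraries. The mimic library stood apart from the other 3, and the knockout to wild-type ratio was -0.05 (-0.97 to 0.85). Its ratio of mimic to negative control was 1.09 (0.51 to 1.75). For Ifit1 the ratio was 1.08 (0.72 to 1.46) and for Usp18 1.42 (0.71 to 2.26). Rsad2, Irf7, Gvin1, Cmpk2 and Oasl2 came next, with 0.92 (0.47 to 1.40), 0.82 (0.42 to 1.25), 0.78 (0.62 to 0.95), 0.77 (0.29 to 1.28) and 0.75 (0.44 to 1.08). Isg15 stood at 0.59 (0.26 to 0.92), Rtp4 at 0.51 (0.11 to 0.92), Oas1a at 0.43 (0.19 to 0.67) and Ifit3 at 0.35 (0.12 to 0.58). Oas3 and Sp100, which were among the called genes between knockout and wild type, stood near 0 here, at 0.07 (-0.29 to 0.44) and 0.06 (-0.12 to 0.24).

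By role the OAS genes had the highest median with the mimic, at 0.49, followed by the transcription factors at 0.36, the sensors at 0.28, the Isg15 and conjugation class and the antiviral effectors both at 0.19, and the GTPases at 0.06. Sensors were close together, from -0.06 for Adar to 0.35 for Zbp1, which was -0.07 on the TPM scale, with Ifih1, Ddx58 and Dhx58 at 0.28, 0.29 and 0.29. GTPases pulled apart. Gbp8 stood at 3.40, 5.07, 3.88 and 2.01 TPM, its lowest level with the mimic, and its ratio was -1.004 (-1.54 to -0.51). Gbp9, its neighbour, stood at 6.31, 8.62, 10.08 and 6.26 TPM, with a ratio of -0.66 (-0.87 to -0.46). Gbp2 had 10.53, 10.49, 15.92 and 10.93 TPM and a ratio of -0.55 (-0.79 to -0.31), where only the negative-control library stood apart. Gbp7 had 2.22, 1.52, 1.66 and 2.28 TPM and a ratio in the other direction, of 0.45 (0.05 to 0.86), and Gbp3 had 4.35, 3.11, 4.02 and 3.58 TPM and a ratio of -0.19 (-0.62 to 0.23). Sting1, a DNA sensing adaptor of the fixed induction list, had 42.25, 44.83, 55.43 and 35.68 TPM, and its ratio was -0.69 (-0.83 to -0.55).

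The size of the mimic ratio depended on the reference, and the comparisons that follow share libraries with the one above. The negative-control library was lower than the untransfected knockout for many members, with none of 42 called in either direction. Of all genes 0.295% were called higher and 0.718% lower. The median was -0.12, with 11 of 42 members above 0, against 50.6% of all genes, and intervals lay below 0 for 10 members and above 0 for 2, where 17.0% and 16.4% of all genes did so. Usp18 stood at -0.87 (-1.76 to -0.08), Ifit1 at -0.55 (-0.96 to -0.16), Oasl2 at -0.43 (-0.77 to -0.09) and Isg15 at -0.42 (-0.77 to -0.08). The 2 above 0 were Gbp2, at 0.56 (0.32 to 0.81), and Adar, at 0.18 (0.06 to 0.30).

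Set against the untransfected knockout, the mimic library had a member median of 0.13, with 30 of 42 above 0, against 50.4% of all genes, and 14 intervals above 0, where 17.3% of all genes had one. Intervals lay below 0 for 5 members, Bst2, Ifitm3, Lgals3bp, Gbp8 and Gbp9, where 17.4% of all genes had one. Called were 1 of 42 higher, Ifi44 at 1.54 (0.87 to 2.34), and 1 lower, Gbp8 at -1.29 (-1.82 to -0.80), where 0.263% and 0.471% of all genes were called. Rsad2 stood at 0.75 (0.30 to 1.23), Oas1a at 0.54 (0.29 to 0.79), Ifit1 at 0.53 (0.19 to 0.87), Cmpk2 at 0.53 (0.06 to 1.03), Gvin1 at 0.51 (0.35 to 0.68) and Irf7 at 0.41 (0.03 to 0.81). Usp18, at 0.54 (-0.08 to 1.21), and Isg15, at 0.17 (-0.15 to 0.48), were within counting error of the untransfected level. Ratios to the negative control were therefore larger than those to the untransfected cells for Usp18, Ifit1 and Isg15, which the negative-control library held at lower levels, and smaller for Ifi44.

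**Figure D3:**
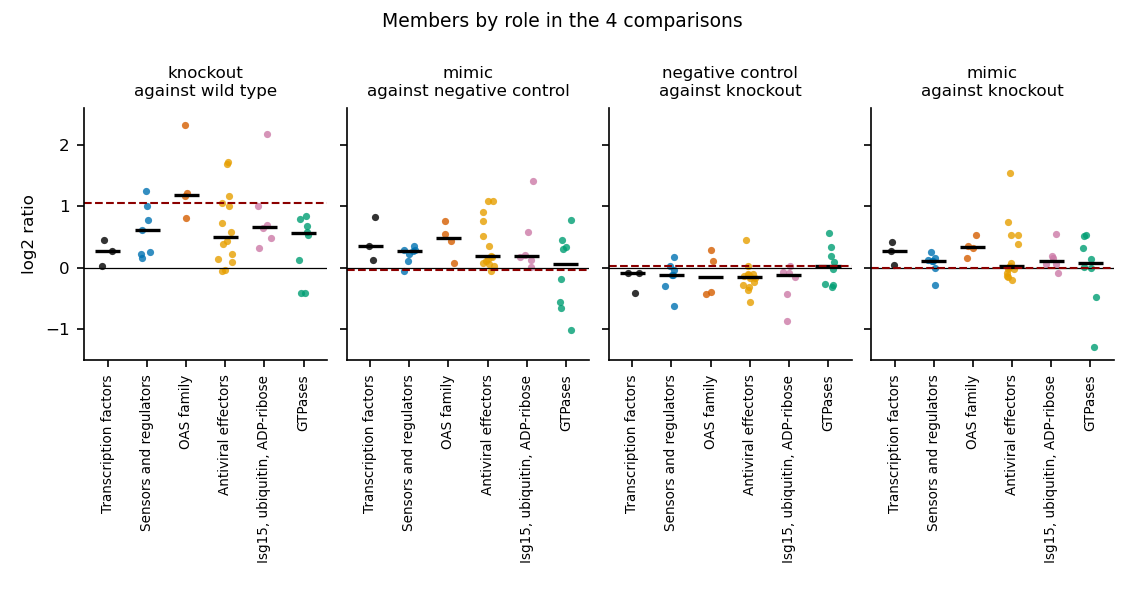
Log2 ratios of the measured members by role in the 4 comparisons, with 1 point per gene, black bars for class medians and a dashed line for the median of the macrophage markers. In knockout against wild type the medians of all classes and of the macrophage markers lie above 0, and in mimic against negative control the class medians run from 0.06 to 0.49 with the macrophage median at -0.04.

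The knockout to wild-type and the mimic to negative-control ratios rest on different libraries. Of 42 members 33 lay above 0 in both, 78.6%, against 22.4% of 12439 genes measured in both. With 38 and 36 members above 0 in the single comparisons, the product of these shares is 77.6%, so the joint count adds little to them. Intervals lay above 0 in both for 19 members, 45.2%, against 5.81% of those genes, and the product of the single shares is 44.9%. The 19 were Irf9, Ifih1, Ddx58, Trim25, Eif2ak2, Oas1a, Oas2, Oasl2, Ifit1, Ifit3, Rsad2, Cmpk2, Ifitm3, Isg15, Usp18, Parp14, Dtx3l, Irgm1 and Gvin1. Above 0 only between knockout and wild type were Adar, Bst2, Gbp2, Gbp8 and Gbp9, and above 0 only with the mimic were Ifi44, Lgals3bp and Gbp7. Gbp3 was below 0 in both.

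**Figure D4:**
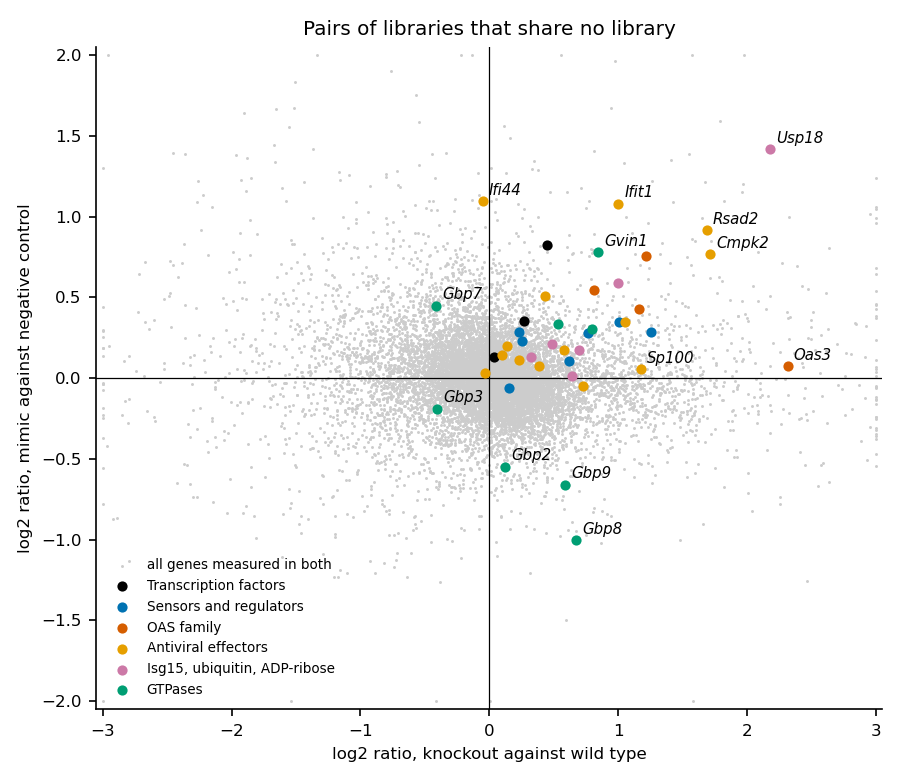
Log2 ratio of mimic against negative control (vertical) over that of knockout against wild type (horizontal) for each measured member, coloured by role, with all genes measured in both in grey and values beyond the axes drawn at the edge. Above 0 on both axes lie 33 of 42 members, and Gbp8 and Gbp9 lie below them.

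Members with and without an ISRE core in their promoter window overlapped in both comparisons. Between knockout and wild type the 17 members with a core had a median of 0.73 (range -0.41 to 2.32) and the 15 measured without one a median of 0.45 (range -0.05 to 1.72). With the mimic the medians were 0.29 and 0.14 against the negative control. Oasl2, Cmpk2 and Sp100 were called between knockout and wild type with no core in the window, whereas 11 of the 17 members with a core were called in none of the 4 comparisons.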

How the data were processed

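Per the labels, total RNA of 4 cultures was sequenced, 1 library per group, and the groups come from the sample labels. Per the submitters' processing notes FastQC, HISAT, Bowtie2 and the builds GRCm38.p6 and mm10 were named, with no roles or versions. No source used here names the counting tool, its annotation or its strand setting. The read counts the authors deposited are estimated counts, not scaled by library size. In each library 4.99% to 5.28% of genes carry decimals, and so do the members Stat2, Eif2ak2, Oas1a, Ifit3, Igtp and Gvin1, so their reads may be shared with similar genes. The authors also deposited TPM, used here for levels, and FPKM and a size-factor-scaled signal, not used for results.

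Counts were scaled with edgeR TMM factors (from 0.978 in the wild-type to 1.02 in the negative-control library), and log2 ratios used a prior of 1 count. For the intervals the estimated counts were rounded. No test across replicates was possible, and no p-value is given. Intervals and the floor of 3 counts, 0.151 to 0.170 CPM, hold counting error alone. They take each read as an independent draw, but a read is not an independent molecule, so the intervals may be too narrow. The members and lists were chosen with earlier results of these data known. Every member is accounted for. Values per library are given for called members, the most abundant, and the 2 largest ratios of each role in 2 comparisons. For other lists the largest ratios, the most abundant receptors and signalling genes are named. Sting1, Ifnar2, Gbp6 and Lyz2 were picked after their values were seen. One gene of the signalling list is not reported here. The functions were tested on simulated counts. Software was R 4.3.3, edgeR 4.0.16, DESeq2 1.42.0, scipy 1.17.1, pandas 2.3.3, numpy 2.4.6 and matplotlib 3.10.9 under Python 3.11.15. Alternatives were total-count and DESeq2 scaling, deposited TPM, other filters, a prior of 5 counts, a 1.5-fold limit and, added after the data were seen, intervals at any fold.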

Additional observations from a re-analysis of the deposited data

How the results depend on the processing

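Medians of the members kept their sign in all 4 comparisons under the 6 alternatives run on them. Of the 11 members higher in the knockout than in the wild-type library, 7 were called at 5 CPM or more, where Zbp1, Rsad2, Cmpk2 and Usp18 no longer passed the filter. With a 1.5-fold limit 22 were called, and with intervals alone 33. Isg15 was no longer called with DESeq2 size factors (log2 ratio 0.99), a prior of 5 counts (0.97) or TPM (0.855), Zbp1 with that prior (0.87) or TPM (0.58), and Ifit3 with TPM (0.93), where the median of all genes itself shifted to -0.11. On TPM 5 members changed sign between knockout and wild type: Xaf1 (0.58 by counts, -0.30 by TPM), Stat2 (0.04, -0.09), Ifitm3 (0.14, -0.02), Samd9l (0.10, -0.03) and Gbp2 (0.13, -0.01). With the mimic against the negative control 1 did, Zbp1 (0.35, -0.07). With the knockout as the reference, 5 turned with mimic and 4 with control siRNA, Xaf1 both times (-0.19, 0.37 and -0.37, 0.28). For mimic against negative control 1 member was called higher at 5 CPM or more, 9 at 1.5-fold and 24 by interval. Gbp8 stopped being called lower, leaving 0, with DESeq2 size factors (-0.9987), TPM (-0.92) and the prior of 5 counts (-0.95), while 2 members were lower at 1.5-fold and 3 by interval. For the negative control against knockout 1 was lower at 1.5-fold, and by interval 2 were higher and 10 lower. For mimic against knockout 0 were higher at 5 CPM or more, 2 at 1.5-fold and 14 by interval, with 5 lower by interval. The causes were not tested, apart from the filter and limits, which change the calls by construction. Low counts limit precision for Usp18, Zbp1, Cmpk2, Rsad2, Oas3, Ifi44 and Oasl1. No paired analysis was possible because each group has 1 library.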
